A study of Mus musculus with 8 samples.

Results

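Txnip, 4 further alpha-arrestin genes (Arrdc1, Arrdc2, Arrdc3 and Arrdc4) and the transcription factor genes Mlx and Mlxip were described across leukaemia stem cells that carry or lack Nynrin. The 7 genes were taken by symbol from the deposited table. Each matched 1 of its 48500 rows, and all 7 were among the 12524 genes that passed the filter on low values (1 FPKM or more in 4 or more of the 8). FPKM are reads scaled to the length of the gene model and to the depth of the library, so levels of different genes can be compared. The WT group (Nynrin+/+) and the Nynrin-KO group (Nynrin-/-) had 4 libraries each, here called WT1 to WT4 and KO1 to KO4, and the mice of both groups had an acute myeloid leukaemia that HOXA9 and MEIS1 drive. About 10000 bone marrow cells with the phenotype GFP+ c-Kit+ Gr-1- were sorted for a library, per the labels. The vector behind the leukaemia, the deleted part of Nynrin, the age of the mice and whether each library came from its own mouse are not stated by the labels. The p-values below therefore measure the spread between these libraries.

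TXNIP, the thioredoxin-interacting protein, binds reduced thioredoxin and blocks it, and it is the one alpha-arrestin known for doing so. Alpha-arrestins are adaptors: their arrestin domains contact membrane proteins, and PPxY motifs in their tails recruit ubiquitin ligases of the NEDD4 type, so that cargo such as glucose transporters is removed from the cell surface. MondoA, the product of Mlxip, pairs with MLX, senses glucose 6-phosphate and binds paired E-boxes (carbohydrate response elements), with TXNIP and ARRDC4 as its best known targets. In blood stem cells TXNIP is known for limiting oxidative stress and holding cells in quiescence. The title of the series names TXNIP destabilization by Nynrin, and the RNA level is the only layer measured here.

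Promoter sequences are shown for Txnip and for Arrdc4 and Arrdc3, the genes of the group that changed, because the paired E-box is the element through which MondoA and MLX act. They are RefSeq promoters of build GRCm38.p6, 250 bases before to 50 bases after the transcript start, 5′ to 3′ on the strand of the gene. Txnip lies at chr3:96557707-96558006 on the plus strand, with the paired E-box in capitals. Arrdc4 lies at chr7:68749189-68749488 on the minus strand, with the single E-box in capitals. Arrdc3 lies at chr13:80883134-80883433 on the plus strand, with a CCAAT box, the binding element of NF-Y, in capitals.
Txnip: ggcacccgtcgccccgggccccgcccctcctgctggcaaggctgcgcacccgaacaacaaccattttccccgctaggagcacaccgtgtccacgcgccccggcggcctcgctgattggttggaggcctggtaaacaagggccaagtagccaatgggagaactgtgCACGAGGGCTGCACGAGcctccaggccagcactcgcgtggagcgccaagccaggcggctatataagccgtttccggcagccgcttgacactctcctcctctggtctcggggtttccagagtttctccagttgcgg
Arrdc4: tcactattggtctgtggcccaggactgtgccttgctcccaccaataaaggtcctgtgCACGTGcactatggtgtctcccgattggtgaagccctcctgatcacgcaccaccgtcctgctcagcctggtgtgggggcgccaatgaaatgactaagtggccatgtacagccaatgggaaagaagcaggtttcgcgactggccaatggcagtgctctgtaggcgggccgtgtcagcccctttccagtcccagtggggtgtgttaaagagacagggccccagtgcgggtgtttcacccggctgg
Arrdc3: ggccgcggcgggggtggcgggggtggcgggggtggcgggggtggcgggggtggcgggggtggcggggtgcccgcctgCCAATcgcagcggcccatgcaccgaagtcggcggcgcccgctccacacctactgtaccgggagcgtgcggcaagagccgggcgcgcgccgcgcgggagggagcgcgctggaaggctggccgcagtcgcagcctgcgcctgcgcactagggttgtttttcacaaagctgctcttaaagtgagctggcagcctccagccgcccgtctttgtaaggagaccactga

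The Txnip promoter held the paired element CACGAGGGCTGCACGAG, whose first base lies 85 bases before the start. It was found by searching both strands for a pair of CACGNG with 5 bases between them, a strict form of the element that 16 of 32851 RefSeq promoters (0.0487%) matched. None of the other 6 genes matched that pattern in this window. The single E-box CACGTG, present in 7.15% of promoters, was found in Arrdc4 at 193 bases and in Mlx at 40 bases before the start. CCAAT on either strand was found in 6 of the 7 promoters, all but Arrdc1, against 37.4% of all promoters, with 6 matches in Arrdc4 and 2 in Txnip. Txnip also held the forkhead element TGTTTAC, on the opposite strand, as do 3.65% of promoters. No pattern overlaps another by its letters, apart from the E-box, which is one form of each arm of the paired pattern. Arrdc3 has 3 RefSeq starts and the one at the GENCODE start was used. These are matches of letters in a window of 300 bases and not measured binding.

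**Figure D1:**
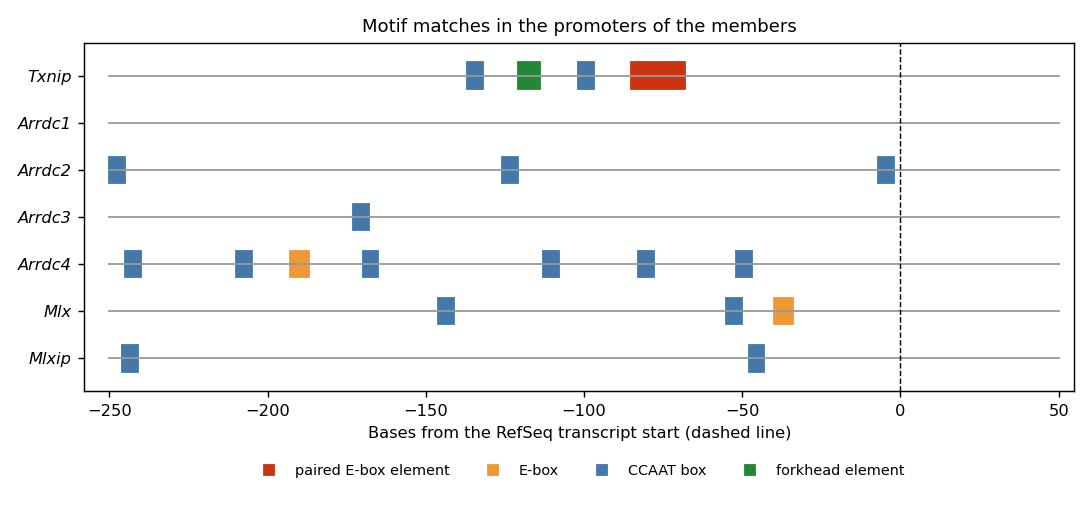
Positions of 4 motifs in the 7 promoters, in bases from the RefSeq transcript start (dashed line), 1 line for each gene and 1 block for each match. Txnip alone carries the paired E-box element, Arrdc4 and Mlx a single E-box, and Arrdc1 none of the 4 motifs.

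Arrdc4 and Arrdc3 rose in Nynrin-KO, by 1.63 and 1.10 on the log2(FPKM + 1) scale, and none of the 7 genes fell. Txnip, Arrdc1 and Mlxip had higher means in Nynrin-KO without passing the threshold, and Mlx and Arrdc2 differed by less than their spread. The test was limma on log2(FPKM + 1) across all genes, two-sided, with Benjamini-Hochberg adjustment at 0.05. The background was high: 27.9% of the 12524 tested genes were called in either direction and 14.0% were called higher in Nynrin-KO, so that 2 of 7 is close to the former share. The log2 change of the 7 genes had a median of 0.58, against -0.03 over all tested genes, and 6 of 7 values were above 0. An unadjusted p under 0.05 was reached by 5 of the 7 and by 40.5% of all tested genes.

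Several features of the libraries differed, some between the groups and some within both. Recovered depth ran from 1.96 to 33.1 M reads in WT and from 1.83 to 28.7 M reads in Nynrin-KO, with WT3 and KO3 far below the others. WT1, KO2 and KO4 were the deepest and held 3349 to 6076 FPKM of Gm10800, a gene model resembling satellite repeats, against 28612 to 142258 FPKM in the other 5 libraries. Xist was at 15.2 to 26.5 FPKM in WT and at most 0.37 FPKM in KO2, KO3 and KO4, where the Y-linked Ddx3y was at 18.2 to 20.7 FPKM, and KO1 held both (12.7 and 2.18 FPKM). Sex and genotype cannot be told apart in these groups. Of 12 mature neutrophil markers 7 rose, their summed level ran from 3001 to 104600 FPKM in WT and from 124800 to 283000 FPKM in Nynrin-KO, and none was at 0 in all libraries, although the sort was for cells without Gr-1. Ly6g, which encodes one of the antigens of Gr-1, was at 0.707 to 49.3 FPKM in WT against 93.5 to 264 FPKM. Of the 8 monocyte and macrophage markers 5 rose (summed level 163 to 274 against 293 to 607 FPKM), and 3 of 4 mast cell and basophil markers rose (3.65 to 10.3 against 47.1 to 110 FPKM). Among the former, Adgre1 and Cd68 were below every WT library in KO1 and KO3, though not in KO2 and KO4. Erythroid markers summed to 0.186 to 1.24 against 4.50 to 31.8 FPKM, B cell markers to 0.151 to 2.36 against 4.43 to 15.3 FPKM, and T cell markers to 0.145 to 1.54 against 0.587 to 4.30 FPKM. Of the markers of the sorted cells, Kit lay between 2.63 and 6.40 FPKM in all libraries and Cd34 fell from 55.7 to 151 FPKM to 5.54 to 7.30 FPKM. Hoxa9 and Meis1 were at 0.569 to 1.90 and 0.664 to 0.898 FPKM in WT and at 1.70 to 6.38 and 2.03 to 5.12 FPKM in Nynrin-KO. Nynrin itself was at 0.008 to 0.437 FPKM with no drop in Nynrin-KO, so its RNA does not check the genotype labels. The part that these cell types, sex and depth had in the results on the 7 genes was not tested, apart from the fits given beside them. In sorted bulk RNA, fewer cells of a type and less RNA per cell cannot be told apart.

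Txnip (ENSMUSG00000038393, mm10 chromosome 3, 96557957 to 96561883, plus strand) was the most abundant of the 7 genes in every library. WT1 to WT4 had 82.5, 58.1, 75.3 and 82.3 FPKM, and KO1 to KO4 had 80.4, 194, 96.8 and 148 FPKM. KO1 lay within the WT range and the other 3 Nynrin-KO libraries above it, so the groups overlapped. The means were 74.5 ± 11.5 and 130 ± 51.6 FPKM (SD, n = 4 each), a log2 change of 0.72 with a 95% confidence interval of 0.06 to 1.38 and an adjusted p of 0.0966. The exact two-sided permutation test over 70 arrangements gave p = 0.0857, where 0.0286 is the smallest possible. The difference thus did not pass the threshold after adjustment, with an unadjusted limma p of 0.0352. The spread between libraries was wider in Nynrin-KO than in WT. Between 418 and 12645 reads stood behind each value. By rank among tested genes, Txnip lay between the 93.3 and 95.3 percentile in WT and between the 96.5 and 97.9 percentile in Nynrin-KO. The overlap through KO1 was thus in FPKM and not in rank. Arrdc1, Arrdc3 and Arrdc4 also did not overlap by rank, while Arrdc2, Mlx and Mlxip did. The share of all genes without overlap by rank was not computed.

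The size of the Txnip difference moved with the libraries used. It was 0.31 (adjusted p = 0.491) within the 5 libraries high in Gm10800, which include neither KO2 nor KO4, and 0.53 (0.109) with the Gm10800 level as a covariate. Those 5 libraries are WT2, WT3, WT4, KO1 and KO3. With them 6.2% of tested genes were called, against 27.9% with all 8. A call lost there does not tell the Gm10800 level from the smaller number of libraries. Without KO1, the library with both Xist and Ddx3y, the Txnip difference was 0.92 (0.0514), and without KO2 0.50 (0.223). With the mean level of the mature neutrophil markers as a covariate it was 0.97 (0.254). That covariate, a mean of log2(FPKM + 1), did not overlap between the groups (5.11 to 9.35 in WT, 10.1 to 11.3 in Nynrin-KO). With it 10 of the 12524 tested genes were called, so a call lost in this fit does not tell neutrophil content from genotype. The Txnip difference passed the threshold with quantile normalization, array weights and voom on recovered reads, with log2 changes of 1.16, 0.92 and 0.70 (adjusted p = 0.00454, 0.0242 and 0.0445), and in none of the 8 fits that leave out a library. Gm15441, an antisense gene on the opposite strand, shares 606 exonic bases, or 19.4% of the exonic bases of Txnip. The use of strand in counting is not given, and Gm15441 was listed at no more than 0.511 FPKM in any library, under 1% of the Txnip level.

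**Figure D2:**
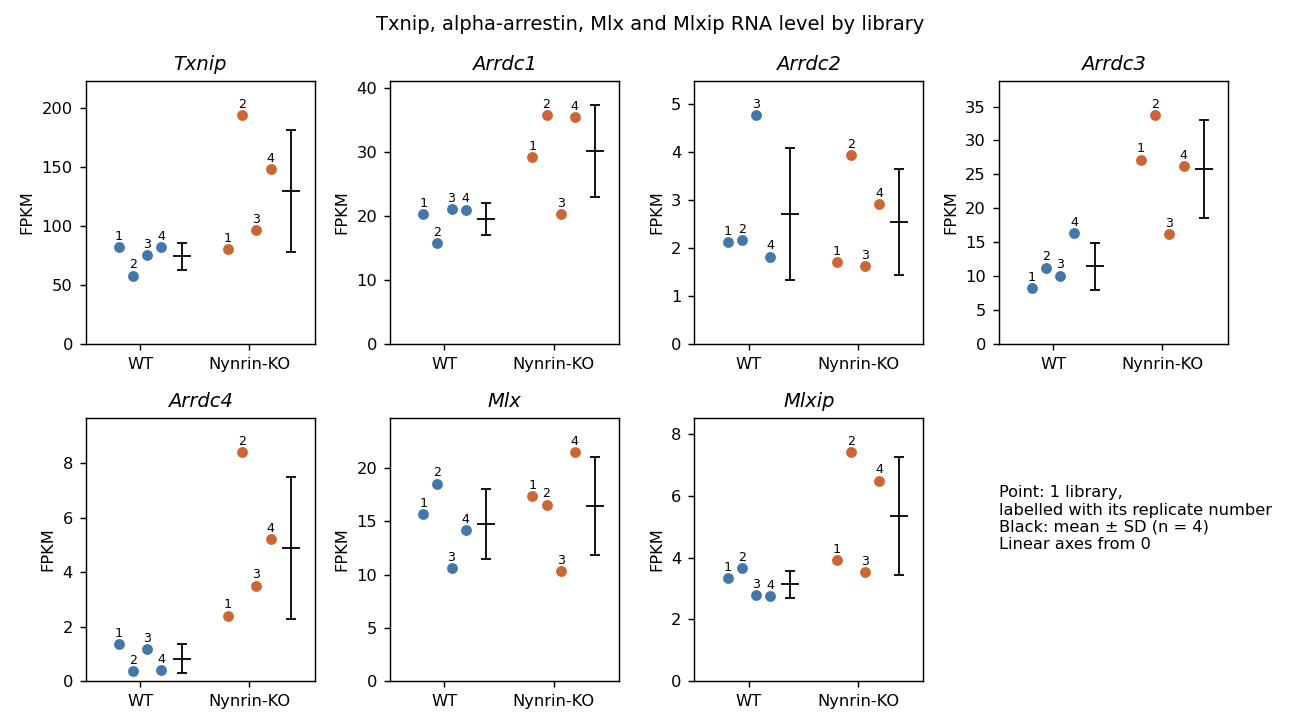
RNA level in FPKM of the 7 genes, 1 point for each library labelled with its replicate number, with the mean ± SD of each group (n = 4) in black and linear axes from 0. Arrdc4 is the gene whose groups do not overlap, and KO2 is the highest Nynrin-KO library for Txnip, Arrdc1, Arrdc2, Arrdc3, Arrdc4 and Mlxip.

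Arrdc4 (ENSMUSG00000042659, chromosome 7, 68736995 to 68749241, minus strand) encodes the alpha-arrestin closest to TXNIP in its response to glucose and, like TXNIP, is known for lowering glucose uptake. It was at 1.36, 0.362, 1.17 and 0.386 FPKM in WT1 to WT4 and at 2.40, 8.42, 3.50 and 5.22 FPKM in KO1 to KO4. Every Nynrin-KO library stood above every WT library, as for 16.7% of all tested genes, and 31.7% of genes had groups without overlap in either direction. The level went from 0.821 ± 0.522 to 4.89 ± 2.62 FPKM (SD, n = 4 each), a difference of 1.63 on the log2 scale with an SE of 0.34 (adjusted p = 0.00874 by limma, exact permutation p = 0.0286, the smallest possible). The ratio of the means was 5.95, larger than the log2(FPKM + 1) change conveys for a gene near 1 FPKM.

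Arrdc4 rested on few reads in WT, with 176, 10, 9 and 26 in WT1 to WT4 and 89, 758, 25 and 585 in KO1 to KO4. In FPKM, the exact 95% Poisson interval of WT3 was 0.537 to 2.23 and that of KO1, the lowest Nynrin-KO library, 1.93 to 2.96. These intervals overlap, and they cover counting error only, since copies made by PCR are not independent molecules. Arrdc4 reached 1 FPKM in 6 libraries, all 4 of Nynrin-KO among them, and would have passed the filter through that group alone. The size depended on the pseudocount, at 2.48 with 0.1 and 0.73 with 5, both past the threshold, and voom on recovered reads gave 2.61. It was called in all 8 fits that leave out a library, with log2 changes from 1.37 to 1.86. Within the 5 libraries high in Gm10800 the change was 1.29 (adjusted p = 0.0972), and with the neutrophil level as a covariate it was 2.21 (0.0696).

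Arrdc3 (ENSMUSG00000074794, chromosome 13, 80883384 to 80896042, plus strand) encodes an adaptor known for directing beta-adrenergic receptors and integrin beta 4 to degradation. WT1 to WT4 had 8.27, 11.3, 10.1 and 16.3 FPKM, and KO1 to KO4 had 27.2, 33.7, 16.2 and 26.2 FPKM. KO3, one of the shallow libraries, fell just below WT4, and the other 3 Nynrin-KO libraries were above all of WT. The means were 11.5 ± 3.46 and 25.8 ± 7.24 FPKM, which is a difference of 1.10 on the log2 scale with an SE of 0.27 (adjusted p = 0.0165 by limma, exact permutation p = 0.0571). Unlike Txnip and Mlxip, Arrdc3 was high in KO1 too. The call held in all 8 fits that leave out a library (adjusted p from 0.00688 to 0.0467). It was lost without WT1 and KO1 together (log2 change 0.93, adjusted p = 0.0966), within the libraries high in Gm10800 (0.72, 0.227), with the neutrophil covariate (0.69, 0.328) and with no filter on low values (1.10, 0.0577).

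Arrdc1 (ENSMUSG00000026972, chromosome 2, 24925352 to 24935252, minus strand), whose product drives budding of vesicles from the plasma membrane, was the second most abundant alpha-arrestin in all 8 libraries. It was at 20.4, 15.8, 21.1 and 21.03 FPKM in WT1 to WT4 and at 29.2, 35.8, 20.4 and 35.4 FPKM in KO1 to KO4. KO3 fell within the WT range and the other 3 Nynrin-KO libraries above it. The means of 19.6 ± 2.55 and 30.2 ± 7.22 FPKM gave a log2 change of 0.58 (95% confidence interval 0.09 to 1.07, adjusted p = 0.0775), which did not pass. Without KO3 it passed, with a log2 change of 0.75 and an adjusted p of 0.0182. It was 0.48 (0.189) without WT2, 0.49 (0.183) without KO2 and 0.33 (0.473) within the libraries high in Gm10800.

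Arrdc2 (ENSMUSG00000002910, chromosome 8, 70835129 to 70839720, minus strand), a paralog in the same family, was low in both groups. It was at 2.12, 2.16, 4.76 and 1.82 FPKM in WT1 to WT4 and at 1.70, 3.94, 1.63 and 2.91 FPKM in KO1 to KO4. The groups overlapped throughout, and the highest value of all came from WT3 on 22 reads. The log2 change was -0.06 (95% confidence interval -0.72 to 0.61, adjusted p = 0.911), an interval that does not exclude changes of the size seen for Arrdc1 in the negative direction or in the positive one.

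Mlxip (ENSMUSG00000038342, chromosome 5, 123394798 to 123457932, plus strand) encodes MondoA, the glucose-sensing partner in the heterodimer. It was at 3.33, 3.66, 2.79 and 2.75 FPKM in WT1 to WT4 and at 3.93, 7.43, 3.52 and 6.50 FPKM in KO1 to KO4. KO2 and KO4 stood well above WT, KO1 just above it and KO3 within it. The means of 3.13 ± 0.439 and 5.34 ± 1.91 FPKM gave a log2 change of 0.57 (95% confidence interval 0.06 to 1.09, adjusted p = 0.0913), which did not pass. It passed without KO3 (0.72, adjusted p = 0.0356), with array weights (0.74, 0.0154) and with voom (0.78, 0.0181), and was 0.42 (0.221) without KO2 and 0.22 (0.640) within the libraries high in Gm10800.

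Mlx (ENSMUSG00000017801, chromosome 11, 101087277 to 101092207, plus strand) encodes the partner through which MondoA binds DNA. It was at 15.7, 18.6, 10.6 and 14.2 FPKM in WT1 to WT4 and at 17.3, 16.6, 10.3 and 21.5 FPKM in KO1 to KO4. The groups overlapped, with both shallow libraries, WT3 and KO3, at the low end. The log2 change was 0.13 (95% confidence interval -0.44 to 0.69, adjusted p = 0.741). Psmc3ip, on the opposite strand, shares 385 exonic bases with Mlx, 19.3% of its exonic length, and was itself at 4.24 to 10.6 FPKM, so reads of the 2 genes may be mixed if strand was not used. Mlxipl, which encodes ChREBP, the liver counterpart of MondoA, stood at no more than 0.703 FPKM in any library, at or under 17 reads, and was not tested.

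By level, Txnip came first in all 8 libraries and Arrdc1 next in 7 of them, with Mlx ahead of Arrdc1 in WT2. Arrdc1, Mlx and Arrdc3 overlapped in WT, where Arrdc3 was below Mlx in 3 libraries, and in all 4 Nynrin-KO libraries Arrdc3 was above Mlx. The order at the low end changed with the group: Arrdc4 was the lowest gene in all 4 WT libraries and Arrdc2 the lowest in all 4 Nynrin-KO libraries. The summed level of the 5 alpha-arrestin genes was 109 ± 14.9 FPKM over the WT libraries and 193 ± 66.2 FPKM over those of Nynrin-KO. Txnip made up 68.2% ± 2.58 and 66.3% ± 6.25 of that sum, and Arrdc4 0.741% ± 0.440 and 2.42% ± 0.554 (SD, n = 4 each). In KO1 Arrdc3 made up 19.3% of the sum, against 11.7% to 12.2% in KO2 to KO4, and Txnip 57.1% against 68.0% to 70.3%.

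Ratios of FPKM within a library do not depend on the scaling between libraries, which holds for Txnip to Txn1 and Mlxip to Mlx but not for Txnip to Arrdc4, where 1 FPKM was added to both genes. Their p-values, from exact two-sided permutation tests, were adjusted over the 3 ratios examined. Thioredoxin 1, the partner that TXNIP blocks, is encoded by Txn1, with a mean of 243 ± 47.1 FPKM over WT and of 176 ± 34.8 FPKM over Nynrin-KO (log2 change -0.47, adjusted p = 0.152). The Txnip to Txn1 ratio was 0.279, 0.219, 0.400 and 0.368 in WT1 to WT4 and 0.379, 1.29, 0.678 and 0.744 in KO1 to KO4. KO2 was the one library with more Txnip than Txn1 RNA, and KO1 again lay within the WT range. The log2 ratio was 1.20 higher in Nynrin-KO (exact permutation p = 0.0571, adjusted 0.0571). It was 0.90 higher without KO2 (adjusted exact p = 0.0857) and 1.49 higher without KO1, whose removal separates the groups by construction, so that its adjusted exact p of 0.0286 is no support.

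The Txnip to Arrdc4 ratio, on FPKM + 1, ran from 35.1 to 60.1 in WT and from 20.7 to 24.0 in Nynrin-KO, with no overlap. Its log2 value was -0.91 in Nynrin-KO relative to WT (exact permutation p = 0.0286, adjusted 0.0571, n = 4 each). It depended on the pseudocount, at -1.76 with 0.1 and -0.04 with 5. The Mlxip to Mlx ratio was 0.194 to 0.262 in WT and 0.227 to 0.448 in Nynrin-KO, where KO1 was the lowest. The log2 difference was 0.58 (exact permutation p = 0.0571, adjusted 0.0571) and 0.23 with a pseudocount of 5. It was 0.41 without KO2 (adjusted exact p = 0.114) and 0.74 without KO1 (0.0286), where the groups again separate because the one library within the WT range is gone.

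**Figure D3:**
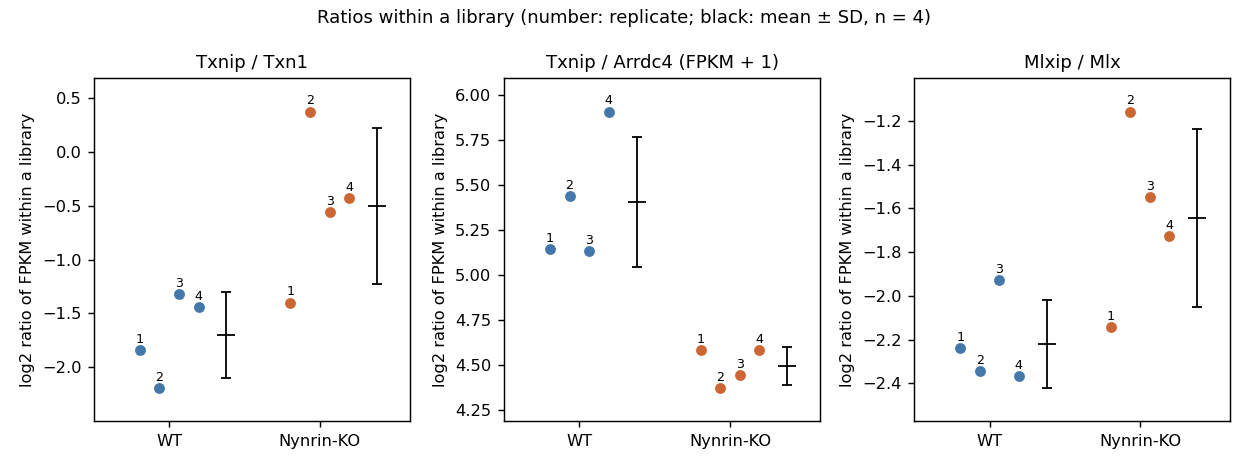
Log2 ratio of 2 genes within a library, 1 point for each library labelled with its replicate number, with the mean ± SD of each group (n = 4) in black. KO1 lies among the WT libraries for Txnip to Txn1 and for Mlxip to Mlx, while for Txnip to Arrdc4 all 4 Nynrin-KO libraries lie below WT.

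Genes that act with the 7 were described from lists of related genes, by counts and by values. Counts are out of the tested genes of each list, with 14.0% of all tested genes called higher and 13.8% called lower in Nynrin-KO. Of 6 other arrestin-fold genes 2 rose, the beta-arrestin genes Arrb1 and Arrb2, which encode the adaptors that desensitize G protein-coupled receptors. Arrb1 went from 2.29 ± 0.623 to 4.44 ± 0.594 FPKM, a log2 change of 0.74 with adjusted p = 0.0204. Arrb2 went from 6.53 ± 1.46 to 15.2 ± 5.58 FPKM, with 1.05 and 0.0267. The retromer genes Vps26a and Vps26b and the related Vps26c did not pass, with log2 changes of -0.28, 0.17 and 0.05. Arrb1 did not pass without KO2 or without KO4 (adjusted p = 0.0562 and 0.0634), nor Arrb2 without any 1 of WT1, WT2, WT4, KO1, KO2 and KO4 (0.0509 to 0.0708).

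Of 7 genes of the wider MLX and MAX network 3 rose and 1 fell. Mxd1, which encodes a repressor that pairs with MAX or MLX, was at 3.89 to 20.8 FPKM in WT and reached 35.4 to 97.7 FPKM in Nynrin-KO, a log2 change of 2.41 with adjusted p = 0.00625. With the mature neutrophil covariate the change of Mxd1 was 1.16 (0.153), and within the libraries high in Gm10800 it was 2.08 (0.0688). The shared partner gene Max went from 1.87 ± 0.592 to 4.53 ± 1.41 FPKM (0.94, 0.0173), and the repressor gene Mxi1 from 3.18 ± 0.529 to 5.28 ± 0.893 FPKM (0.59, 0.0319), a call that was lost without any 1 of WT1, WT3, WT4, KO1, KO2 and KO4 (adjusted p = 0.0566 to 0.0854). Myc, at 49.1 to 102 FPKM in WT, fell to between 13.1 and 22.5 FPKM (-1.69, 0.00372). Within the libraries high in Gm10800 the fall of Myc was the one call of this list.

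Of 8 genes for thioredoxins and proteins tied to TXNIP, 3 rose and 1 fell. Txn2, the mitochondrial thioredoxin gene, fell from 70.6 ± 21.4 to 35.0 ± 9.73 FPKM (log2 change -1.001, adjusted p = 0.0280), a call lost without WT1 (-0.81, 0.0635) or without KO1 (-1.03, 0.0546), and Txnrd1, the cytosolic reductase gene, did not pass (-0.51, 0.0930). Slc2a3, which encodes the glucose transporter GLUT3, rose from 6.47 ± 3.70 to 31.5 ± 15.0 FPKM (2.17, 0.00815), while Slc2a1, which encodes GLUT1, the transporter that TXNIP is known to internalize, was at 6.99 ± 1.93 and 6.89 ± 1.84 FPKM (-0.01, 95% confidence interval -0.56 to 0.54). With the mature neutrophil covariate the change of Slc2a3 was 1.029 (adjusted p = 0.215). Nlrp3, the inflammasome sensor gene, and Prkaa1, which encodes the AMPK catalytic subunit that phosphorylates TXNIP, rose by 0.77 and 0.78 (adjusted p = 0.0368 and 0.0138). The call of Nlrp3 was lost without any 1 of WT1, WT2, WT3, KO1, KO2 and KO4 (adjusted p = 0.0547 to 0.103). None of the 4 called genes passed within the libraries high in Gm10800.

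Of 8 NEDD4-type ligase and adaptor genes 3 rose and none fell. Nedd4 went from 0.596, 1.12, 0.929 and 0.942 FPKM in WT1 to WT4 to 8.34, 7.16, 9.52 and 11.8 FPKM in KO1 to KO4, with a log2 change of 2.41 (SE 0.19, adjusted p = 0.000650). It passed under all 23 alternatives. Below 1 FPKM in WT1, WT3 and WT4, Nedd4 would have passed the filter through Nynrin-KO alone. Its adaptor gene Ndfip2 and the ligase gene Smurf2 rose by 0.80 and 0.54 (adjusted p = 0.0165 and 0.0439), and Smurf2 did not pass without any 1 of the libraries other than WT3 (0.0562 to 0.109). Ndfip2, at 1.26 ± 0.403 and 2.90 ± 0.310 FPKM, passed in all 8 fits that leave out a library. Its call was lost with no filter (adjusted p = 0.0999) and without WT1 and KO1 together (0.0754). It was also lost within the libraries high in Gm10800 (0.184) and with the neutrophil covariate (0.185). Itch, the ligase known for ubiquitinating TXNIP, was at 12.1 ± 1.26 and 17.6 ± 4.79 FPKM and did not pass (0.48, adjusted p = 0.116).

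Of 4 other genes reported as MondoA or ChREBP targets 2 rose and 1 fell. Klf10, a glucose-induced repressor gene, rose from a mean of 25.7 ± 6.21 to one of 52.4 ± 13.6 FPKM (log2 change 0.9999, adjusted p = 0.0197), a call lost without KO2 (0.87, 0.0562) or without KO4 (0.91, 0.0535). Pfkfb3, which encodes an activator of glycolysis, rose from 4.78 ± 1.32 to 11.9 ± 2.87 FPKM (1.16, 0.00734). Within the libraries high in Gm10800 Klf10 was at 0.71 (0.213) and Pfkfb3 at 0.84 (0.148), and with the neutrophil covariate at 1.06 (0.188) and 1.05 (0.163). Ldha, which encodes lactate dehydrogenase A, fell from 1106 ± 328 to 342 ± 86.6 FPKM (-1.68, 0.00329), and Hk2, the hexokinase 2 gene, did not pass (0.25, 0.261). With the neutrophil covariate Nedd4 was the one gene called in any of the 6 lists, and 10 of all 12524 tested genes were called. The covariate did not overlap between the groups, so the calls lost with it do not tell neutrophil content from genotype. Of 4 genes for factors reported to act on Txnip, Nr3c1, the glucocorticoid receptor gene, rose from 5.43 ± 0.764 to 10.8 ± 3.11 FPKM (0.84, 0.0235), and did not pass without any 1 of WT1, KO1, KO2 and KO4 (0.0569 to 0.0641). Foxo3, Hsf1 and Vdr did not pass, with log2 changes of 0.36, -0.08 and -0.73 (adjusted p = 0.246, 0.791 and 0.0581).

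**Figure D4:**
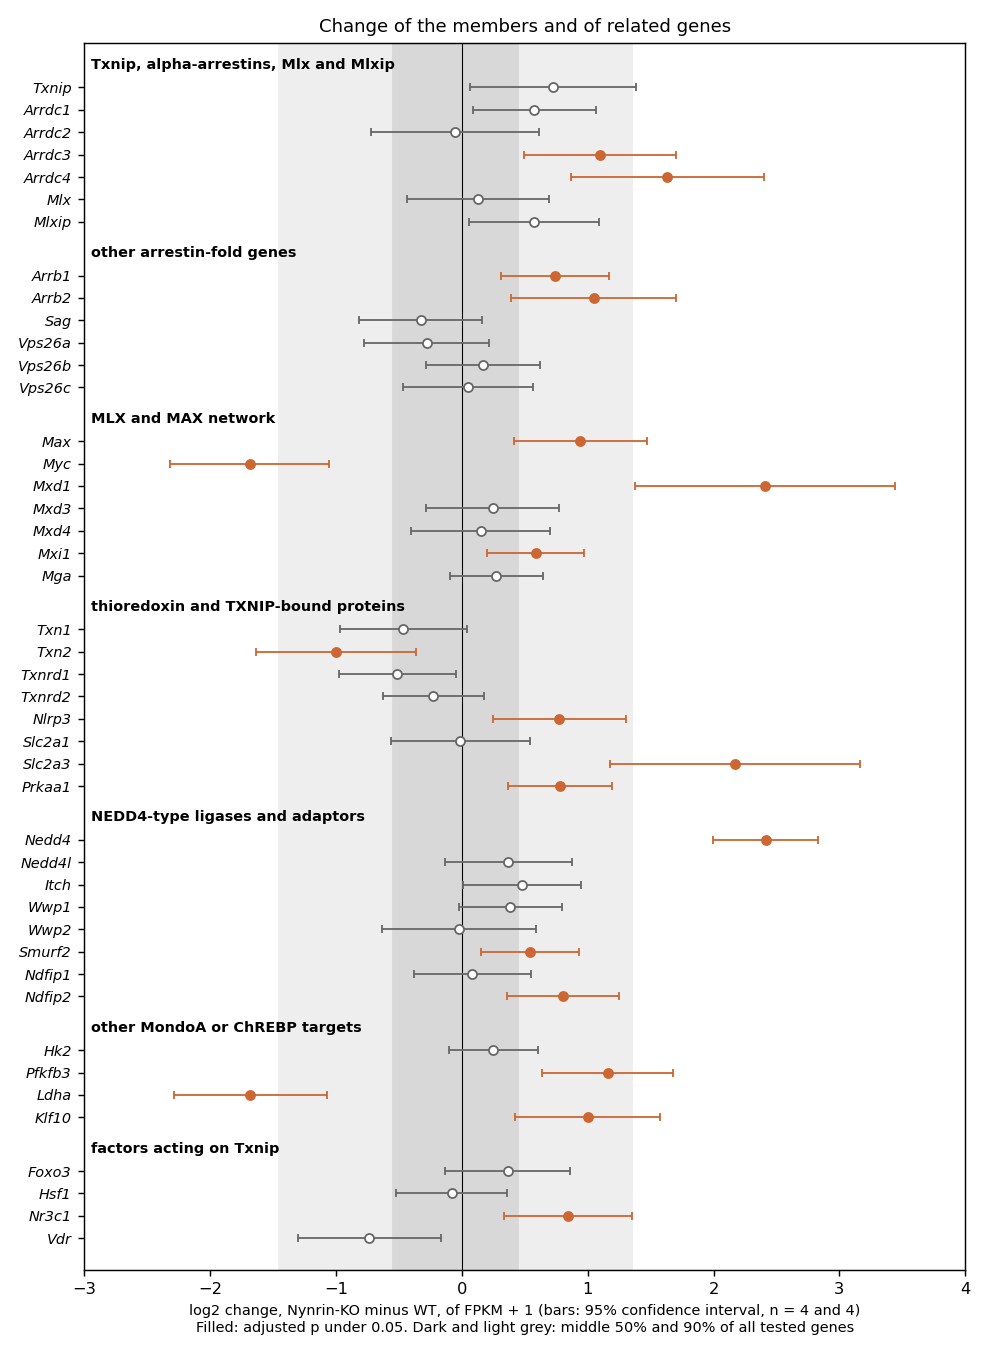
Log2 change of FPKM + 1 (Nynrin-KO minus WT) with its 95% confidence interval for the 7 genes and for the tested genes of the related lists, filled where the adjusted p was under 0.05, with the middle 50% and 90% of all 12524 tested genes in dark and light grey. Arrdc4 at 1.63 lies beyond the 95th percentile of all genes, 1.35, and Txnip at 0.72 within it.

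The genes whose pattern was most like that of Txnip were sought among 5035 tested genes with a mean of at least 5 FPKM and a named symbol, by Pearson r of log2(FPKM + 1) over the 8 libraries. The first 5 were Ddi2, Tep1, Susd3, Rgs14 and Il6ra, with r of 0.990, 0.984, 0.984, 0.981 and 0.979. Tep1, which encodes a telomerase-associated protein, was at 5.54, 14.7, 8.51 and 10.9 FPKM in KO1 to KO4 and at 4.08 to 6.25 FPKM in WT, so that, as for Txnip, KO1 lay within WT and the other 3 above it. KO1 also lay within WT for Ddi2 and Il6ra. It was above all of WT for Susd3 (13.8 against at most 10.6 FPKM) and Rgs14 (16.8 against at most 14.8 FPKM). For Arrdc4 the first 5 were Gucd1, Uvrag, Ccdc12, N4bp2l1 and Gpank1, with r from 0.961 to 0.988. Txnip and Arrdc4 had r = 0.910 with each other, and 2.46% of the genes compared had a higher r with Txnip than Arrdc4 did. Mlxip and Arrdc1 had r of 0.868 and 0.865 with Txnip, where 5.2% and 5.44% of genes had a higher r. For Arrdc3, Arrdc2 and Mlx the r with Txnip was 0.74, 0.39 and 0.25. In Nynrin-KO the order KO2, KO4, KO3, KO1 was the same for Txnip and Arrdc4. These r are descriptions over 8 libraries in 2 groups, and the libraries differ in depth and cell makeup. Genes are not independent replicates.

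**Figure D5:**
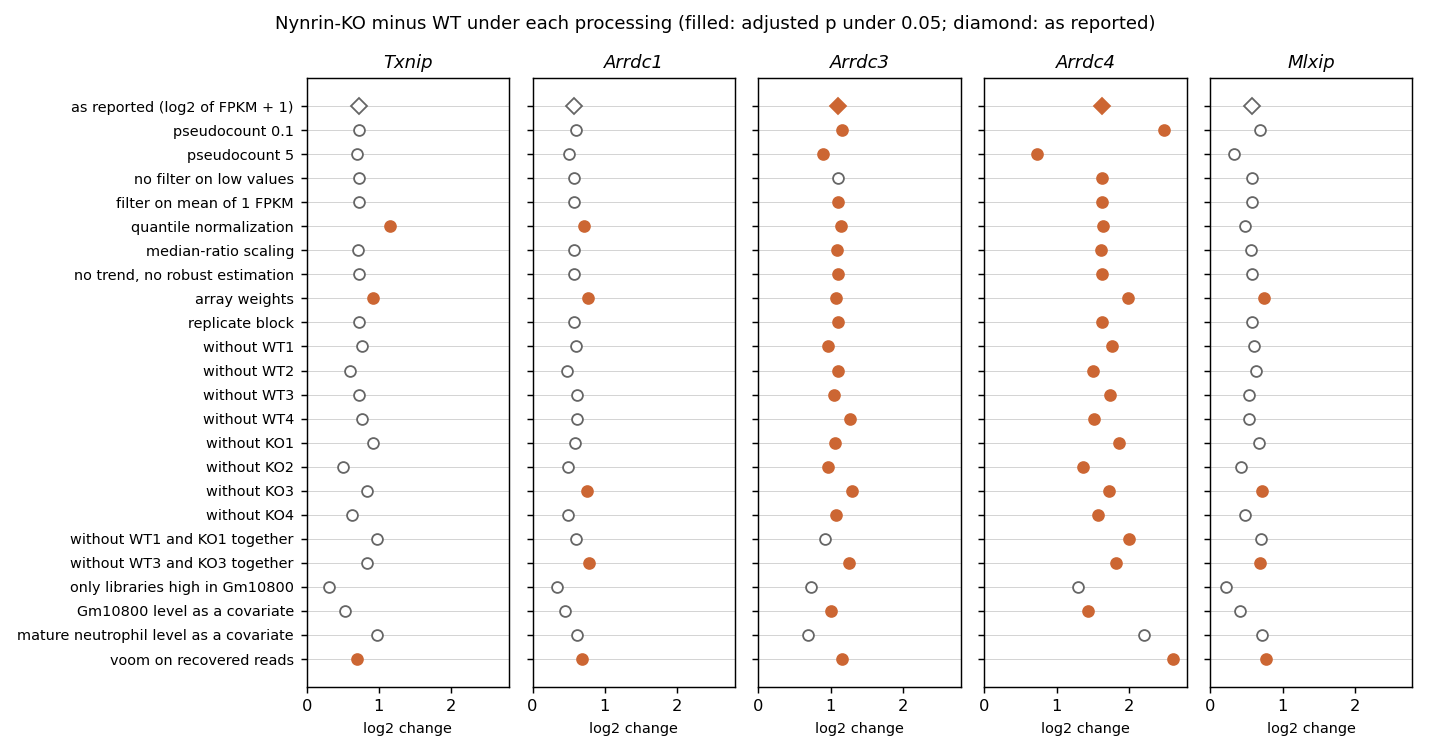
Log2 change (Nynrin-KO minus WT) of 5 genes as reported (diamond) and under 23 alternatives of processing, scaling and libraries (circles), filled where the adjusted p was under 0.05. Arrdc4 and Arrdc3 are filled in 21 and 19 of the 23, Txnip in 3, Arrdc1 in 5 and Mlxip in 4, and all values are above 0.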

How the data were processed

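RNA-seq of 8 libraries, 4 WT and 4 Nynrin-KO, was used as one deposited table of FPKM, 1 column for each library, and columns were assigned by library name. Libraries were made with the Smart-Seq V4 kit, per the labels. The deposited values were taken for FPKM: each, times the longest GENCODE M21 transcript, is a whole number of reads (tolerance 0.1) for 99.46% to 99.54% of the values checked, with 1.83 to 33.1 M reads in all. Per the submitters' processing notes, the build was mm10 and the tools Bowtie 0.12.9, Cufflinks 2.1.1 and HTSeq. What each tool did, the counting rule and strand are not given.

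Genes that reached 1 FPKM in 4 or more libraries entered limma (version 3.58.1 in R 4.3.3; trend, robust, group as the only term; adjusted p under 0.05) on log2(FPKM + 1), which understates changes of low genes. A gene can pass this filter through 1 group alone. The script was tested on simulated data. Ratios and single genes used exact permutation tests (Python 3.11.15, scipy 1.17.1). Count tests with edgeR and DESeq2 were not run because the unit is FPKM. Named genes are the 7, related genes that passed or, in lists with no call, the 2 with the smallest p, 4 sort markers, Nynrin, and the 5 genes most like Txnip or Arrdc4. Other genes with values (Gm10800, Gm15441, Psmc3ip, Mlxipl, Xist, Ddx3y, Cd34 and list members that did not pass) were added after values were seen. Adgre1 and Cd68 were likewise named after values were seen. The 7 genes and the lists were chosen with earlier results of these data known. Sequences are from RefSeq (GRCm38.p6).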

Additional observations from a re-analysis of the deposited data

Results flagged for a closer look

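In groups of 4 libraries, 62 sets of values (28 genes and 3 ratios, in each genotype) were checked for a library far from the other 3, and 5 had one. About 1 in 20 such sets stand out by chance. Arrdc1 was 15.8 FPKM in WT2, against 20.4 to 21.1 FPKM in the other WT libraries. Arrdc2 was 4.76 FPKM in WT3, from 22 reads, against 1.82 to 2.16 FPKM. Myc was 102.3 FPKM in WT1, the deepest library, against 49.1 to 54.5 FPKM. Txn2 was 102.6 FPKM in WT1, against 58.6 to 61.7 FPKM. Ndfip2 was 0.657 FPKM in WT3, against 1.44 to 1.4997 FPKM.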

How the results depend on the processing

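Depth limits Arrdc4 and Arrdc2 most, with as few as 9 and 7 reads in the shallow libraries. Of the 7 genes, 2 were called as reported. The number was 5 with array weights and with voom on recovered reads, where 39.3% and 42.2% of all genes were called, 4 with quantile normalization and without WT3 and KO3 together (3758 of 12524 and 3776 of 10747 genes), and 1 with no filter and without WT1 and KO1 together. Leaving out 1 library gave 2 to 4, with 4 without KO3. It was 0 by limma within the 5 libraries high in Gm10800 (filter of 3 libraries) and with the mature neutrophil covariate, where 1 gene each had an unadjusted p under 0.05, as did 25.1% and 20.2% of all genes. Over all genes, 3488 were called as reported, 1698 with no filter, 1579 without WT1 and KO1, 821 in the libraries high in Gm10800 (20.7% of them higher in Nynrin-KO, against 50.3%), 10 with the neutrophil covariate and 5272 with voom. No scaling moved the median of all genes by over 0.1.

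Txnip passed with quantile normalization (1.16), array weights (0.92) and voom (0.70), and its adjusted p ran from 0.00454 to 0.491 over 23 alternatives, all with a positive change. Leaving out 1 library, its log2 change ran from 0.50 to 0.92, and the log2 differences ran from 0.904 to 1.494 for Txnip to Txn1, -1.003 to -0.745 for Txnip to Arrdc4 and 0.413 to 0.741 for Mlxip to Mlx, each past the threshold without KO1 alone, which lay within the WT range for Txnip to Txn1 and Mlxip to Mlx. Arrdc2 changed sign with array weights (0.26), voom (0.443) and without WT3 and KO3 (0.303), and ran from -0.232 to 0.176 with 1 library left out. Mlx changed sign in the libraries high in Gm10800 (-0.070) and with the Gm10800 covariate (-0.028), and ran from -0.011 to 0.321 with 1 library left out. Neither gene was past the threshold in any fit, and the cause of these shifts was not tested. With the replicate number as a block, 2838 genes and 2 of the 7 were called, and Txnip was at 0.72 (adjusted p = 0.153). Count tests with edgeR and DESeq2 on the recovered reads were listed as alternatives and were not run. Whether the replicate numbers pair the libraries is not known. Same-numbered deviations correlated at -0.213, -0.389, 0.329 and 0.008, and differently numbered ones at -0.474 to 0.532, which does not settle it.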

Other observations

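The strict paired E-box pattern occurred in the promoters of 15 named genes, 9 of them tested. Of these 9, Fnip1, which encodes a folliculin-interacting protein of the AMPK and mTORC1 pathways, rose (log2 change 0.80, adjusted p = 0.0383 by limma), and the RNA-binding protein gene Rbmxl1 and the histone-binding protein gene Rbbp4 fell (-1.56 and -0.84, adjusted p = 0.00282 and 0.0280). The other 6, Txnip among them, did not pass, and the median of the 9 was -0.13 against -0.03 over all tested genes. Of all tested genes, 14.0% were called higher and 13.8% lower in Nynrin-KO. This list was formed after the data were seen.

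Transcripts beside Arrdc3 and Mlxip had their own values. 1700023H06Rik, which lies within Arrdc3 on the opposite strand and shares none of its exons, was at 2.83 to 3.905 FPKM in WT and 3.74 to 6.81 FPKM in Nynrin-KO. Gm15747, which shares 267 exonic bases (3.21%) with Mlxip, was at 0 to 1.08 FPKM in WT and at 0 to 0.083 FPKM in Nynrin-KO. Gm42908, Gm43813 and Gm42907 overlap Mlxip on its own strand and share none of its exonic bases. Gm42908 was at 2.13 to 2.92 FPKM in WT and 3.29 to 4.36 FPKM in Nynrin-KO. The groups overlapped for Gm43813 (1.78 to 2.37 against 2.03 to 4.68 FPKM) and Gm42907 (0.49 to 0.95 against 0.51 to 0.74 FPKM).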
